A study of Bos grunniens with 6 samples.

Results

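Genes of fatty acid synthesis and breakdown were compared between cultured yak dermal papilla cells (DPC) and hair matrix cells (HMC). The rule for choosing them asked for every row of the deposited table with the pathway name "fatty acid metabolism", and for FASN and SCD by name, without rows of cholesterol or terpenoid backbone synthesis. That pathway name stands in 0 rows, so the rule reached only FASN and SCD, 2 of 15646 genes. The enzymes around them were therefore taken from a list of 56 genes written from textbook knowledge, of which 51 matched a row of the table. ACAT1, which the table also places in terpenoid backbone synthesis, was left out, and 50 enzymes remained, 25 of them under older symbols. No row was matched for ACSBG2, ELOVL7, HACD1, TECRL and FADS1, which are not analysed here. Where the table uses an older symbol, it is given in parentheses where the gene is described.

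Fatty acids are built in the cytosol from acetyl-CoA, which acetyl-CoA carboxylase turns into malonyl-CoA and fatty acid synthase strings together into palmitate. Acyl-CoA synthetases activate the product, elongases of the endoplasmic reticulum lengthen it, and stearoyl-CoA desaturases place a double bond in it. For breakdown, the carnitine shuttle carries acyl groups into mitochondria, where beta-oxidation removes them as acetyl-CoA, and peroxisomes shorten very long and branched chains. In skin, fatty acids enter sebum, the barrier lipids of the epidermis and the lipids of the hair surface.

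The dermal papilla is the mesenchymal cell cluster at the base of the hair follicle, and the hair matrix is the epithelium around it that divides to form the shaft. Both cell types were isolated from the skin of wild-type yak (Bos grunniens) and grown in 1 shared DMEM/F12 medium with 10% fetal bovine serum, 10 ng/mL IGF1 and 20 ng/mL EGF. Messenger RNA was sequenced from 3 cultures of each. The labels call the cultures biological replicates and do not say whether they came from separate animals, so that p-values measure the spread between these cultures only.

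Whole reads recovered from the values summed to at least 13.1 M per library (M, mega). Of 6 papilla markers, VCAN (CSPG2), ITGA8, RSPO3 and NOG had means of 30.9 to 105 FPKM in DPC and of 0.219 to 2.58 FPKM in HMC, but ALPL and CORIN (CRN) reached at most 0.23 FPKM in any of the 6 libraries. The summed level of the 6 was 268 to 286 FPKM in DPC against 3.56 to 4.85 FPKM in HMC. Of 8 markers of the matrix and follicle epithelium, KRT5, CDH1, ITGA6, TP63 (KET) and LEF1 were higher in HMC, KRT14 and HOXC13 (HOX3G) did not pass the test, and MSX2 was higher in DPC. Their summed level was 52.0 to 70.6 FPKM in DPC against 1460 to 1555 FPKM in HMC. KRT5 held most of the HMC sum, with means of 1083 FPKM in HMC and 38.1 FPKM in DPC. TP63 was low, with means of 0.992 FPKM in HMC and 0.0687 FPKM in DPC. HOXC13, a defining gene of the matrix, reached at most 1.04 FPKM in any library. Fewer cells of a type and less RNA per cell cannot be told apart in such bulk libraries.

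Among the 50 enzymes, 43 had a mean of at least 0.5 FPKM (fragments scaled to gene length and to the mapped fragments of a library) and were tested with limma on log2(FPKM + 1). In DPC 7 were higher, in HMC 28 were higher, and 8 did not pass the adjusted threshold of 0.05. Of all 11883 genes tested, 75.9% passed, 29.7% higher in DPC and 46.2% higher in HMC. The enzymes thus passed at 81.4%, near the share of all genes, and 65.1% of them were higher in HMC. Called differences of at least 2-fold on the log2(FPKM + 1) scale lay toward HMC for 11 of the 43 enzymes and toward DPC for 3. Of all genes, 16.1% and 11% had such differences. The median log2 difference, DPC minus HMC, was -0.35 for the enzymes and -0.15 for all genes. Lack of overlap between the libraries is given below as description only, since its share over all genes was not computed. FPKM summed to at most 554803 in a DPC library and to at least 647963 in an HMC library, and scaling moved the median of all genes to -0.02 with median-of-ratios size factors and to 0.05 with quantile normalization. The calls for the enzymes then became 8 toward DPC and 23 toward HMC with the former, and 11 and 20 with the latter, while the share of all calls that lay toward DPC went from 39.1% to 48.8% and 53.8%. Where another scaling ended the call of an enzyme, this is given beside it. Turned signs are listed at the end, with the dependence on processing.

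Synthesis, elongation and desaturation held 22 of the enzymes, of which 18 were tested. Of these, 13 were higher in HMC (72.2%, all genes 46.2%), 3 were higher in DPC (16.7%, all genes 29.7%) and 2 did not pass. The median was -0.46, against -0.15 for all genes. The carnitine shuttle and oxidation held 20, of which 18 were tested, with 9 higher in HMC, 4 higher in DPC, 5 not called and a median of -0.17. The second group had 50% of its tested enzymes higher in HMC and 22.2% higher in DPC. Its share toward HMC and its median thus lay near the 46.2% and -0.15 of all genes. Its order of directions did not hold under quantile normalization, which gave 6 calls toward HMC and 7 toward DPC with a median of 0.01. The first group kept 9 against 3 there. Enzymes that differed at least 2-fold in opposite directions stood side by side in elongation and desaturation, as the plot of log2 differences by role shows.

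**Figure D1:**
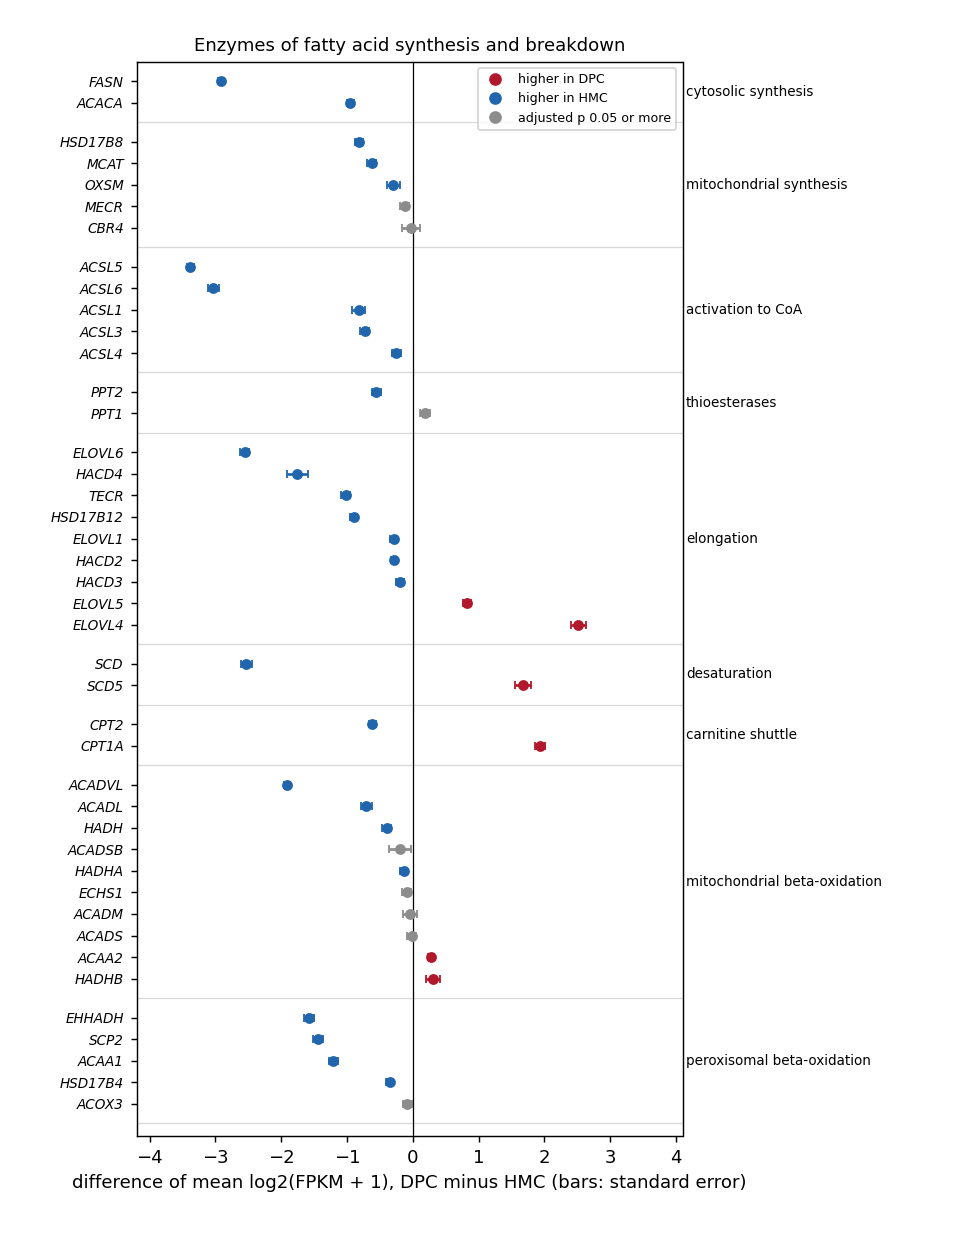
Log2 difference of the tested enzymes named in the text on the log2(FPKM + 1) scale, DPC minus HMC, grouped by role, with standard errors as bars and colours for calls of the limma test at an adjusted p of 0.05. FASN, ACSL5, ACSL6, ELOVL6 and SCD lie at -2.53 or below, and ELOVL4, CPT1A and SCD5 lie at 1.68 or above. Of the smaller differences, that of ACAA2 at 0.27 kept its call under both other scalings and that of HADHA at -0.14 changed its sign.

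Cytosolic synthesis was higher in HMC. FASN (ENSBGRG00000005349), the multifunctional synthase that makes palmitate, stood at 25.1, 23.3 and 24.3 FPKM in the DPC libraries and at 184, 191 and 195 FPKM in the HMC libraries. All HMC libraries lay far above all DPC libraries, and the means differed 7.84-fold (24.2 ± 0.87 against 190 ± 6.0 FPKM, SD, n = 3 each). The log2 difference of FASN was -2.92 (SE 0.05, limma adjusted p = 4.1e-10). ACACA (ACAC), the carboxylase that supplies malonyl-CoA for synthesis, stood at 8.11, 7.81 and 7.57 FPKM in DPC and at 15.8, 16.3 and 16.0 FPKM in HMC. The groups of ACACA did not overlap, and its log2 difference was -0.95 (SE 0.06, limma adjusted p = 1.3e-06), smaller than that of FASN. ACACB (ACC2), the carboxylase at the outer mitochondrial membrane whose malonyl-CoA restrains the shuttle, reached at most 0.0668 FPKM in any library and was not tested. Summed over the 3 genes, the level was 32.1 ± 1.0 FPKM in DPC against 206 ± 6.2 FPKM in HMC, a ratio of 6.42.

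Mitochondria hold a separate synthesis pathway of single enzymes, which among others makes the precursor of lipoic acid. All 5 of its listed enzymes were tested. Of these, 3 were higher in HMC (60%, all genes 46.2%), 0 in DPC (all genes 29.7%) and 2 did not pass. Under both other scalings 2 were higher in HMC. MCAT (MT), which loads malonyl groups onto the carrier protein, stood at 24.0, 20.5 and 21.1 FPKM in DPC and at 35.8, 33.2 and 33.7 FPKM in HMC. HSD17B8 (FABGL), a subunit of the ketoacyl reductase, stood at 19.5, 19.6 and 17.8 FPKM in DPC and at 36.5, 33.2 and 32.99 FPKM in HMC. For both genes every HMC library lay above every DPC library, with log2 differences of -0.62 for MCAT and -0.82 for HSD17B8 (limma adjusted p = 5.6e-05 and 6.0e-06). The condensing enzyme OXSM was low, at 2.53 ± 0.37 and 3.33 ± 0.15 FPKM, and its log2 difference of -0.30 lost its call under both other scalings. CBR4, the other subunit of the reductase, stood at 11.2 ± 2.1 and 11.4 ± 1.7 FPKM, and the enoyl reductase MECR (NBRF1) at 12.002 ± 0.51 and 13.2 ± 1.0 FPKM, and neither passed the test. HTD2, the dehydratase of this pathway, is not among the listed enzymes and was picked out after its values were seen. It went the other way, at 32.0 ± 4.7 FPKM in DPC against 21.7 ± 3.6 FPKM in HMC, a log2 difference of 0.54 (limma adjusted p = 0.0075).

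**Figure D2:**
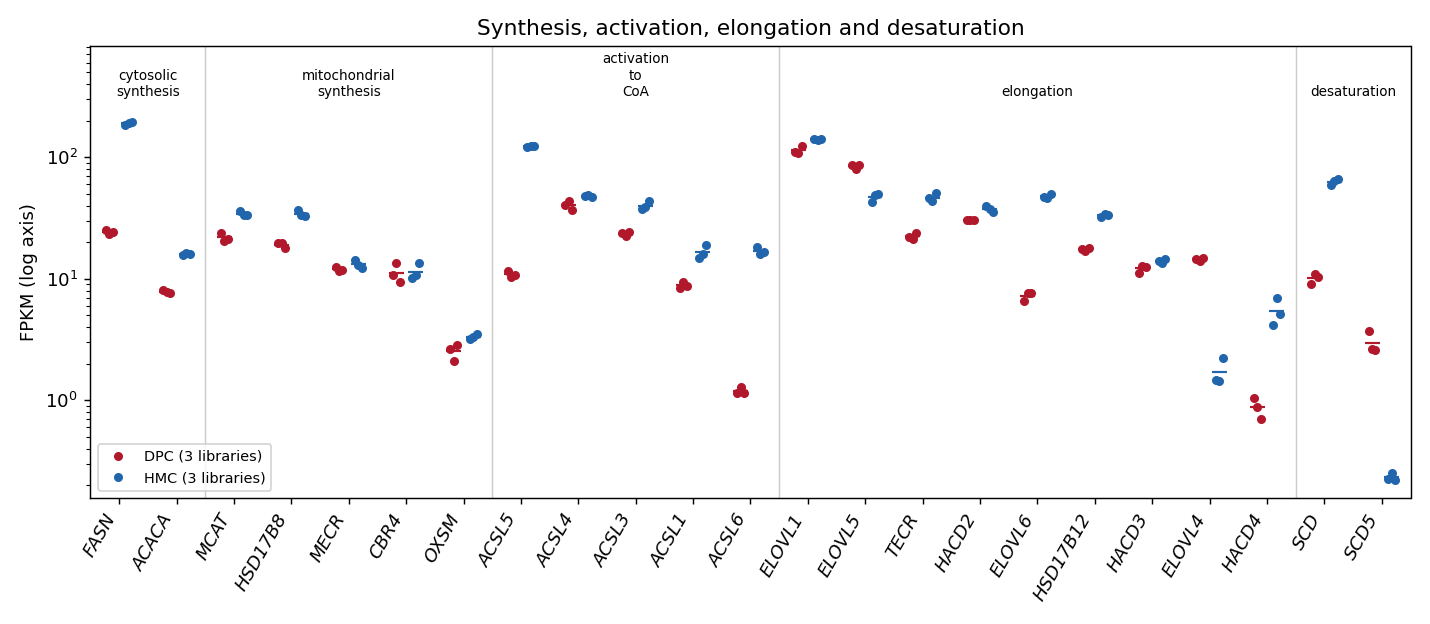
FPKM on a log axis for each tested enzyme of synthesis, activation, elongation and desaturation, with 1 point per library and a bar at the mean of 3 libraries, DPC in red and HMC in blue. The HMC points of FASN sit between 184 and 195 FPKM, all above the DPC points, and those of ELOVL4 and SCD5 sit below the DPC points.

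Long-chain acyl-CoA synthetases attach CoA to free fatty acids. All 5 tested were higher in HMC with FPKM as deposited (100%, all genes 46.2%), and ACSL4 was the exception under other scalings. ACSL5 (Acs5), found on mitochondria and the endoplasmic reticulum, stood at 11.6, 10.4 and 10.8 FPKM in DPC and at 121, 124 and 125 FPKM in HMC. ACSL6 stood at 1.15, 1.29 and 1.16 FPKM in DPC and at 18.3, 16.1 and 16.5 FPKM in HMC. Both separated the groups without overlap, ACSL5 by 11.3-fold and ACSL6 by 14.2-fold in the means, with log2 differences of -3.38 and -3.03 (limma adjusted p = 4.1e-10 and 5.4e-09). ACSL4 (ACS4), which prefers arachidonic acid, stood at 40.5, 43.3 and 36.5 FPKM in DPC and at 47.8, 48.6 and 46.7 FPKM in HMC. Its log2 difference of -0.25 was called with FPKM as deposited (limma adjusted p = 0.0084) but was -0.10 and 0.04 under the other scalings, without a call. ACSL1 and ACSL3 (ACS3) had log2 differences of -0.82 and -0.73, and ACSBG1 was listed at 0 in 5 of 6 libraries.

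Within the synthetase family the leading member differed. ACSL4 made up 47.4 ± 2.5% of the summed FPKM of the 5 synthetases in DPC and 19.6 ± 0.76% in HMC. ACSL5 made up 12.9 ± 0.87% in DPC and 50.4 ± 0.60% in HMC (SD, n = 3 each). The sum itself was 84.6 ± 2.7 FPKM in DPC against 244 ± 5.7 FPKM in HMC.

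Of the lysosomal thioesterases that the table places in elongation, PPT2 was higher in HMC and PPT1 did not pass. PPT1 (CLN1), which removes palmitate from proteins, stood at 24.9, 27.4 and 23.3 FPKM in DPC and at 20.4, 22.4 and 23.3 FPKM in HMC. These ranges touched, and the log2 difference of 0.18 missed the threshold (SE 0.08, limma adjusted p = 0.057), whereas it passed under both other scalings. PPT2 stood at 26.5, 25.9 and 23.3 FPKM in DPC and at 39.5, 37.6 and 35.6 FPKM in HMC, without overlap, at a log2 difference of -0.55 (limma adjusted p = 8.7e-05).

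Elongation was split between family members. ELOVL6 (FACE), which extends palmitate to stearate, stood at 6.57, 7.65 and 7.60 FPKM in DPC and at 46.8, 45.8 and 50.1 FPKM in HMC. ELOVL4, which makes the very long chains of barrier lipids, stood at 14.7, 13.9 and 14.7 FPKM in DPC and at 1.47, 1.45 and 2.21 FPKM in HMC. Neither gene overlapped between the groups, and they differed in opposite directions, ELOVL6 by -2.56 (SE 0.07, limma adjusted p = 9.4e-09) and ELOVL4 by 2.52 (SE 0.11, limma adjusted p = 1.7e-07) on the log2 scale. ELOVL5, which lengthens polyunsaturated chains, was also higher in DPC, at 85.9, 80.2 and 85.9 FPKM against 43.1, 48.8 and 49.5 FPKM in HMC. The log2 difference of ELOVL5 was 0.82 (SE 0.06, limma adjusted p = 5.1e-06). ELOVL1 (CGI-88), which extends saturated chains to very long ones, was the most abundant elongase in both, at 111, 109 and 124 FPKM in DPC and at 141, 140 and 141 FPKM in HMC. Its log2 difference of -0.29 was called with FPKM as deposited and fell to -0.02 under quantile normalization. ELOVL2 and ELOVL3 (CIG30) reached at most 0.167 FPKM in any library.

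The sum of the 6 elongases was 221 ± 11 FPKM in DPC against 237 ± 5.5 FPKM in HMC, and the groups overlapped. Over the 4 tested elongases the ratio of HMC to DPC turned from 1.08 with FPKM as deposited to 0.961 and 0.884 under the other scalings. ELOVL6 took 3.30 ± 0.31% of the sum of deposited FPKM in DPC and 20.1 ± 0.58% in HMC. ELOVL5 took 38.1 ± 1.2% in DPC and 19.9 ± 1.2% in HMC, and ELOVL4 took 6.54 ± 0.21% and 0.72 ± 0.16% (SD, n = 3 each). Shares within a family are not affected by a common scaling factor of a library.

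The other steps of the elongation cycle were higher in HMC with FPKM as deposited. The reductases HSD17B12 (SDR12C1) and TECR (GPSN2), which carry out the second and the fourth step, had log2 differences of -0.89 and -1.02. TECR stood at 22.4 ± 1.4 FPKM in DPC against 46.6 ± 3.6 FPKM in HMC. Of the dehydratases of the third step, HACD4 (PTPLAD2) was low and differed by -1.76, at 0.872 ± 0.17 FPKM in DPC against 5.41 ± 1.5 FPKM in HMC. HACD2 and HACD3 (PTPLAD1) differed by -0.28 and -0.19, and neither kept its call under the other scalings.

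**Figure D3:**
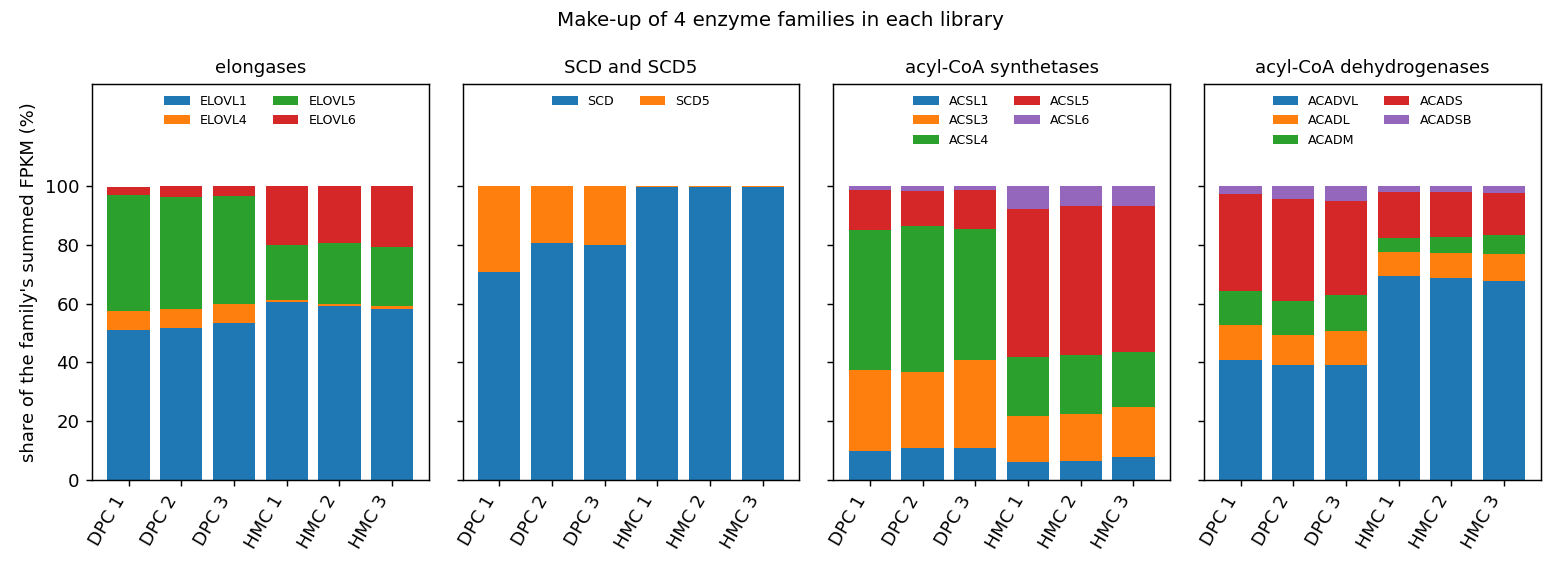
Stacked bars of the share of each gene, in percent, in the summed FPKM of its enzyme family for each of the 6 libraries, for elongases, stearoyl-CoA desaturases, long-chain acyl-CoA synthetases and acyl-CoA dehydrogenases, where members that never reach 0.3% are not drawn. The shares of ELOVL6, ACSL5 and ACADVL are larger in all HMC libraries than in all DPC libraries, and that of SCD5 has a mean of 22.9% in DPC and 0.37% in HMC.

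The stearoyl-CoA desaturases differed in opposite directions. SCD (ENSBGRG00000024230), which makes oleate from stearate, stood at 9.01, 10.96 and 10.3 FPKM in DPC and at 59.1, 63.4 and 66.5 FPKM in HMC. SCD5, a second desaturase of the same specificity, stood at 3.72, 2.62 and 2.59 FPKM in DPC and at 0.225, 0.254 and 0.220 FPKM in HMC. Neither gene overlapped between the groups. The log2 difference was -2.53 for SCD (SE 0.08, limma adjusted p = 1.8e-08) and 1.68 for SCD5 (SE 0.12, limma adjusted p = 3.5e-06), and the means of SCD differed 6.24-fold and those of SCD5 12.8-fold. SCD5 rested on 22 recovered reads in HMC in total. FADS2, the desaturase that opens the route to long polyunsaturated chains, reached at most 0.353 FPKM in any library and was not tested.

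For breakdown, the outer and the inner transferase of the shuttle differed in direction. CPT1A (CPT1), the outer carnitine palmitoyltransferase that malonyl-CoA inhibits, stood at 41.7, 47.8 and 42.9 FPKM in DPC and at 11.8, 10.7 and 9.89 FPKM in HMC. CPT2, which returns the acyl group to CoA inside the mitochondrion, stood at 23.0, 22.4 and 21.3 FPKM in DPC and at 34.4, 33.6 and 35.6 FPKM in HMC. Both separated the groups, CPT1A toward DPC by 4.08-fold and CPT2 toward HMC by 1.55-fold. The log2 differences were 1.94 for CPT1A (SE 0.08, limma adjusted p = 9.5e-08) and -0.61 for CPT2 (SE 0.05, limma adjusted p = 1.2e-05). CPT1B, the muscle form, and CPT1C (CATL1), the neural form, had means of at most 0.667 FPKM in either group, and CPT1A made up 98.9% of the summed FPKM of the 3 forms in DPC and 91.6% in HMC.

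In mitochondrial beta-oxidation all 10 listed enzymes were tested. Of these, 4 were higher in HMC (40%, all genes 46.2%), 2 in DPC (20%, all genes 29.7%) and 4 did not pass. This order of directions rests on scaling, since quantile normalization gave 2 toward HMC and 5 toward DPC. ACADVL (VLCAD), the dehydrogenase of very long chains, was the exception in size. It stood at 26.6, 27.4 and 27.5 FPKM in DPC and at 108, 105 and 102 FPKM in HMC, 3.87-fold apart and without overlap, with a log2 difference of -1.91 (SE 0.04, limma adjusted p = 2.6e-09). ACADL, the dehydrogenase of long chains, stood at 7.81, 6.98 and 8.22 FPKM in DPC and at 12.3, 12.8 and 14.3 FPKM in HMC. ACADL did not overlap and differed by -0.71 (limma adjusted p = 8.1e-05), and both dehydrogenases kept their calls under every alternative tried. The dehydrogenases of shorter chains did not pass with FPKM as deposited. Quantile normalization called ACADS toward DPC, at a log2 difference of 0.21 (limma adjusted p = 0.028). ACADM stood at 8.06 ± 0.55 and 8.36 ± 1.2 FPKM, ACADS at 22.9 ± 1.4 and 23.2 ± 1.5 FPKM, and ACADSB at 2.70 ± 0.87 and 3.17 ± 0.24 FPKM in DPC and HMC. ACADVL made up 39.7 ± 1.0% of the summed FPKM of these 5 dehydrogenases in DPC and 68.7 ± 1.0% in HMC.

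Later steps of the mitochondrial cycle differed by less than 0.41 on the log2 scale. ACAA2, the thiolase of the last step, was the most abundant of the listed mitochondrial enzymes in DPC, at 71.5, 72.3 and 69.2 FPKM, and stood at 58.7, 60.5 and 57.0 FPKM in HMC. It did not overlap and differed by 0.27 toward DPC (SE 0.04, limma adjusted p = 5.7e-04) and kept this call under every alternative tried. The hydratase ECHS1 stood at 40.3 ± 3.5 and 42.9 ± 1.4 FPKM and missed the threshold with FPKM as deposited. Quantile normalization turned its log2 difference to 0.20, with a call toward DPC (limma adjusted p = 0.035). The dehydrogenase HADH (HAD) differed by -0.40, a call that quantile normalization ended at -0.16 (limma adjusted p = 0.053). HADHA (LCHYD-HAD) and HADHB, the alpha and beta subunits of the trifunctional protein that acts on long chains, differed by -0.14 and 0.30. HADHA changed its sign under both other scalings, to 0.02 and 0.16, and HADHB lost its call without DPC replicate 2 or 3 or HMC replicate 2 or 3, at log2 differences from 0.20 to 0.32. The ratio of HADHA to HADHB within a library, which no scaling factor touches, was 1.59 to 1.999 in DPC and 2.199 to 2.58 in HMC. ACAT1, the left-out thiolase, stood at 64.5 ± 4.6 and 64.4 ± 2.4 FPKM.

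Of the 6 peroxisomal enzymes, 4 were higher in HMC (66.7%, all genes 46.2%), 1 in DPC (16.7%, all genes 29.7%) and 1 did not pass. EHHADH (ECHD), the bifunctional enzyme of straight chains, stood at 1.96, 1.75 and 1.95 FPKM in DPC and at 7.29, 7.498 and 7.98 FPKM in HMC. SCP2, which encodes a thiolase of branched chains and a sterol carrier, stood at 25.1, 21.2 and 24.0 FPKM in DPC and at 69.1, 64.9 and 61.8 FPKM in HMC. ACAA1 (ACAA), the thiolase of straight chains, stood at 25.8, 24.5 and 23.3 FPKM in DPC and at 63.4, 55.3 and 55.6 FPKM in HMC. None of these 3 overlapped, and their log2 differences were -1.57, -1.44 and -1.21 (limma adjusted p = 2.7e-07, 3.8e-07 and 7.4e-07). HSD17B4 (EDH17B4), the second bifunctional enzyme, differed by -0.35, and by -0.08 without a call under quantile normalization. ACOX3 (BRCOX), an oxidase that acts on branched chains, stood at 8.45 ± 0.14 and 9.03 ± 0.69 FPKM and missed the threshold.

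**Figure D4:**
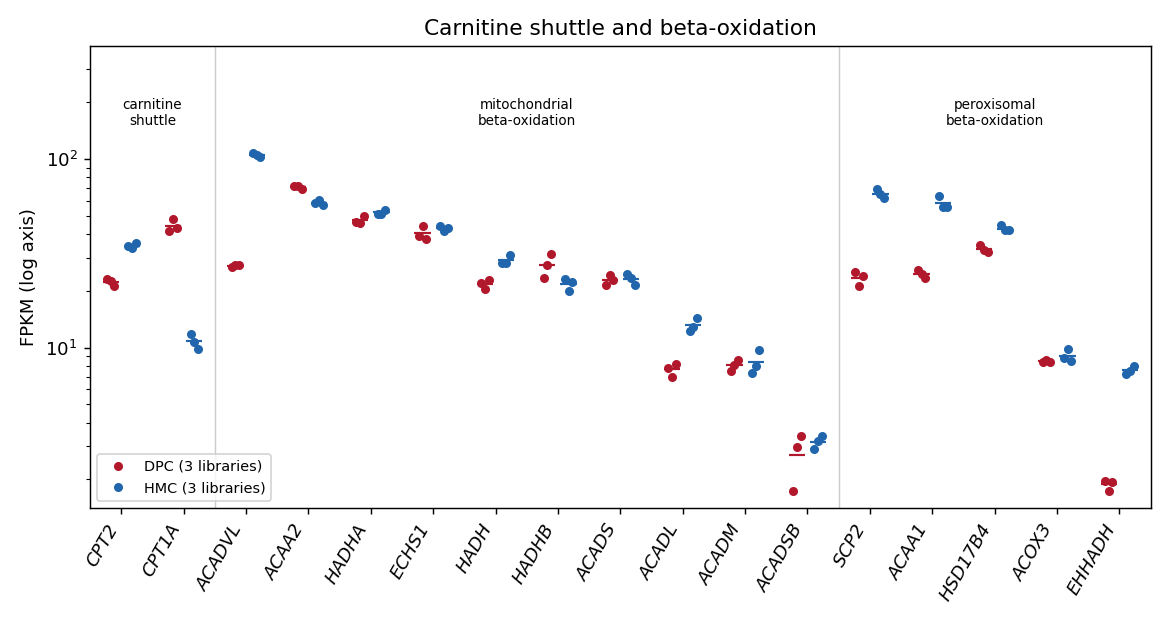
FPKM on a log axis for the tested enzymes of the carnitine shuttle and of beta-oxidation that the text names, with 1 point per library and a bar at the mean of 3 libraries, DPC in red and HMC in blue. The DPC points of CPT1A sit between 41.7 and 47.8 FPKM, above the HMC points, while those of ACADVL, SCP2, ACAA1 and EHHADH sit below the HMC points. The points of ACADM, ACADS, ACADSB, ECHS1 and ACOX3 overlap.

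Summed over the tested enzymes of a role, the ratio of HMC to DPC was 6.43 for cytosolic synthesis, 4.84 for desaturation, 2.88 for activation, 1.79 for peroxisomal oxidation, 1.45 for mitochondrial synthesis, 1.29 for mitochondrial oxidation, 1.23 for elongation and 1.18 for the thioesterases. Under quantile normalization the last 3 ratios were 1.07, 1.02 and 0.988, with overlap between the groups for elongation and the thioesterases, while that of cytosolic synthesis was 5.44 and that of desaturation 4.11. Among these roles only the shuttle had the larger sum in DPC, over its 4 genes 66.9 ± 3.4 FPKM against 46.3 ± 1.0 FPKM in HMC, with a ratio of DPC to HMC of 1.44. The shuttle kept that direction under both other scalings.

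Ratios between genes within a library were computed for 10 pairs picked after their values were seen. FASN over CPT1A was 0.488 to 0.602 in DPC and 15.6 to 19.8 in HMC. ELOVL6 over ELOVL5 was 0.0765 to 0.0954 in DPC and 0.939 to 1.09 in HMC, and SCD over SCD5 was 2.42 to 4.18 in DPC and 250 to 303 in HMC. ACADVL over ACADM was 3.20 to 3.56 in DPC and 10.5 to 14.7 in HMC. None of these ranges overlapped, and each pair had p = 0.1 in a two-sided exact permutation test, before and after adjustment over the 10 pairs, which is the smallest value that 3 against 3 libraries can give.

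Genes that supply, control or use fatty acids were taken from a further list of 70, of which 60 matched and 55 were tested. Of these, 25 were higher in HMC, 16 in DPC and 14 did not pass, shares of 45.5% and 29.1% that lie near those of all genes. The other scalings turned that order, to 20 against 23 and to 18 against 23. Some groups within the list differed in direction under all 3 scalings. Supply of acetyl-CoA and NADPH had 4 of 5 genes higher in HMC and 1 in DPC, while uptake and binding had 1 of 8 higher in HMC and 4 in DPC. With quantile normalization these counts were 3 and 1 for supply, and 1 and 6 for uptake and binding. Of all 11883 genes, that scaling called 4078 toward HMC and 4745 toward DPC.

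In supply, the citrate carrier SLC25A1 (SLC20A3) stood at 102, 97.4 and 105 FPKM in DPC and at 278, 277 and 275 FPKM in HMC. ACLY, which splits citrate into cytosolic acetyl-CoA, stood at 29.9, 29.7 and 29.9 FPKM in DPC and at 74.0, 72.6 and 75.0 FPKM in HMC. ACSS2 (ACAS2), which makes acetyl-CoA from acetate, stood at 0.616, 0.477 and 0.707 FPKM in DPC and at 11.8, 12.9 and 12.4 FPKM in HMC. All 3 separated the groups, with log2 differences of -1.44, -1.28 and -3.07 (limma adjusted p = 7.0e-09, 2.1e-08 and 8.1e-09).

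Among 15 tested genes of control, 9 were higher in HMC (60%, all genes 46.2%), 4 in DPC (26.7%, all genes 29.7%) and 2 did not pass. The counts toward HMC and DPC were 8 and 6 with median-of-ratios size factors and 7 and 6 with quantile normalization. SREBF1, the transcription factor that drives FASN and SCD in many tissues, stood at 10.8, 11.5 and 12.4 FPKM in DPC and at 23.3, 24.6 and 23.0 FPKM in HMC, a log2 difference of -0.98 (limma adjusted p = 2.4e-06). INSIG1, a sterol-sensing retention protein that is itself a target of this pathway, stood at 5.29, 5.54 and 4.72 FPKM in DPC and at 40.8, 38.9 and 35.0 FPKM in HMC, a log2 difference of -2.67 (limma adjusted p = 1.4e-08). Neither of them overlapped between the groups. The coactivator PPARGC1B (PERC) was also higher in HMC, at 9.21 ± 0.33 FPKM against 1.501 ± 0.13 FPKM in DPC.

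The nuclear receptors for fatty acids did not share a direction. PPARG (NR1C3), known for fat cell formation and active in sebocytes, stood at 16.7, 16.8 and 16.97 FPKM in DPC and at 7.80, 9.12 and 10.4 FPKM in HMC, a log2 difference of 0.82 (limma adjusted p = 7.1e-05). PPARD (NR1C2), the broadly expressed form, stood at 16.0 ± 0.88 FPKM in DPC against 35.1 ± 0.76 FPKM in HMC, a log2 difference of -1.09. PPARA (NR1C1), which drives oxidation genes in liver, stood at 4.65, 4.94 and 6.19 FPKM in DPC and at 3.35, 2.46 and 5.06 FPKM in HMC, which overlapped. Its log2 difference of 0.47 missed the threshold (limma adjusted p = 0.058) and passed under both other scalings. It was 0.28 without HMC replicate 2, with no call, and 0.68 without HMC replicate 3, with a call. PDK4 (PDHK4), which spares glucose when fatty acids are burnt, stood at 6.35 ± 0.21 FPKM in DPC against 1.63 ± 0.37 FPKM in HMC, a log2 difference of 1.49. PPARD and PDK4 were picked out after their values were seen.

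In uptake and binding, CD36 (PAS4), a fatty acid receptor of the cell surface, stood at 4.60, 4.50 and 5.75 FPKM in DPC and at 0.115, 0.0189 and 0.0562 FPKM in HMC. SLC27A2 (ACSVL1), a transporter that also activates very long chains, stood at 0.0757, 0 and 0.0764 FPKM in DPC and at 14.1, 13.02 and 10.6 FPKM in HMC. These 2 genes were thus near 0 in opposite cell types, with log2 differences of 2.48 and -3.68 (limma adjusted p = 1.2e-07 and 1.4e-08), which the pseudocount makes smaller than the ratio of the levels. The binding protein FABP5, picked out after its values were seen, was among the abundant ones, with 169 ± 7.0 FPKM in DPC against 65.4 ± 5.3 FPKM in HMC.

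Carnitine transferases for short and for medium chains went opposite ways. CRAT (CAT1), which handles acetyl groups, stood at 40.0, 42.3 and 40.7 FPKM in DPC and at 129, 126 and 124 FPKM in HMC. CROT (COT), which moves chains shortened in peroxisomes, stood at 24.0, 23.6 and 23.2 FPKM in DPC and at 4.03, 4.19 and 3.94 FPKM in HMC. No values overlapped, and the log2 differences were -1.60 for CRAT and 2.28 for CROT (limma adjusted p = 5.9e-09 and 5.8e-09). CROT over CRAT was 0.557 to 0.600 in DPC and 0.0313 to 0.0333 in HMC.

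The remaining groups of that list were mixed. Of 11 auxiliary enzymes of oxidation, 3 were higher in each cell type and 5 did not pass, but both other scalings gave 5 toward DPC and 0 toward HMC. The differences of ACAD10 and ACAD11, related to the acyl-CoA dehydrogenases, were 1.38 and 0.82. Of 5 acyl-CoA thioesterases, 3 were higher in HMC (60%, all genes 46.2%) and 1 in DPC (20%, all genes 29.7%). ACOT7 (BACH), which releases long chains in the cytosol, stood at 19.1 ± 0.77 FPKM in DPC against 85.7 ± 2.1 FPKM in HMC. ACOT8 (ACTEIII), the peroxisomal form, stood at 7.40 ± 1.1 and 23.6 ± 0.11 FPKM. Among 5 genes of peroxisome entry and alpha-oxidation, the import receptor PEX7 differed by -0.47 and the lyase HACL1 (HSPC279) by 0.38. Of the ketone body genes, BDH1 differed by -0.59 and OXCT1 (OXCT), which uses ketone bodies, by 0.79.

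**Figure D5:**
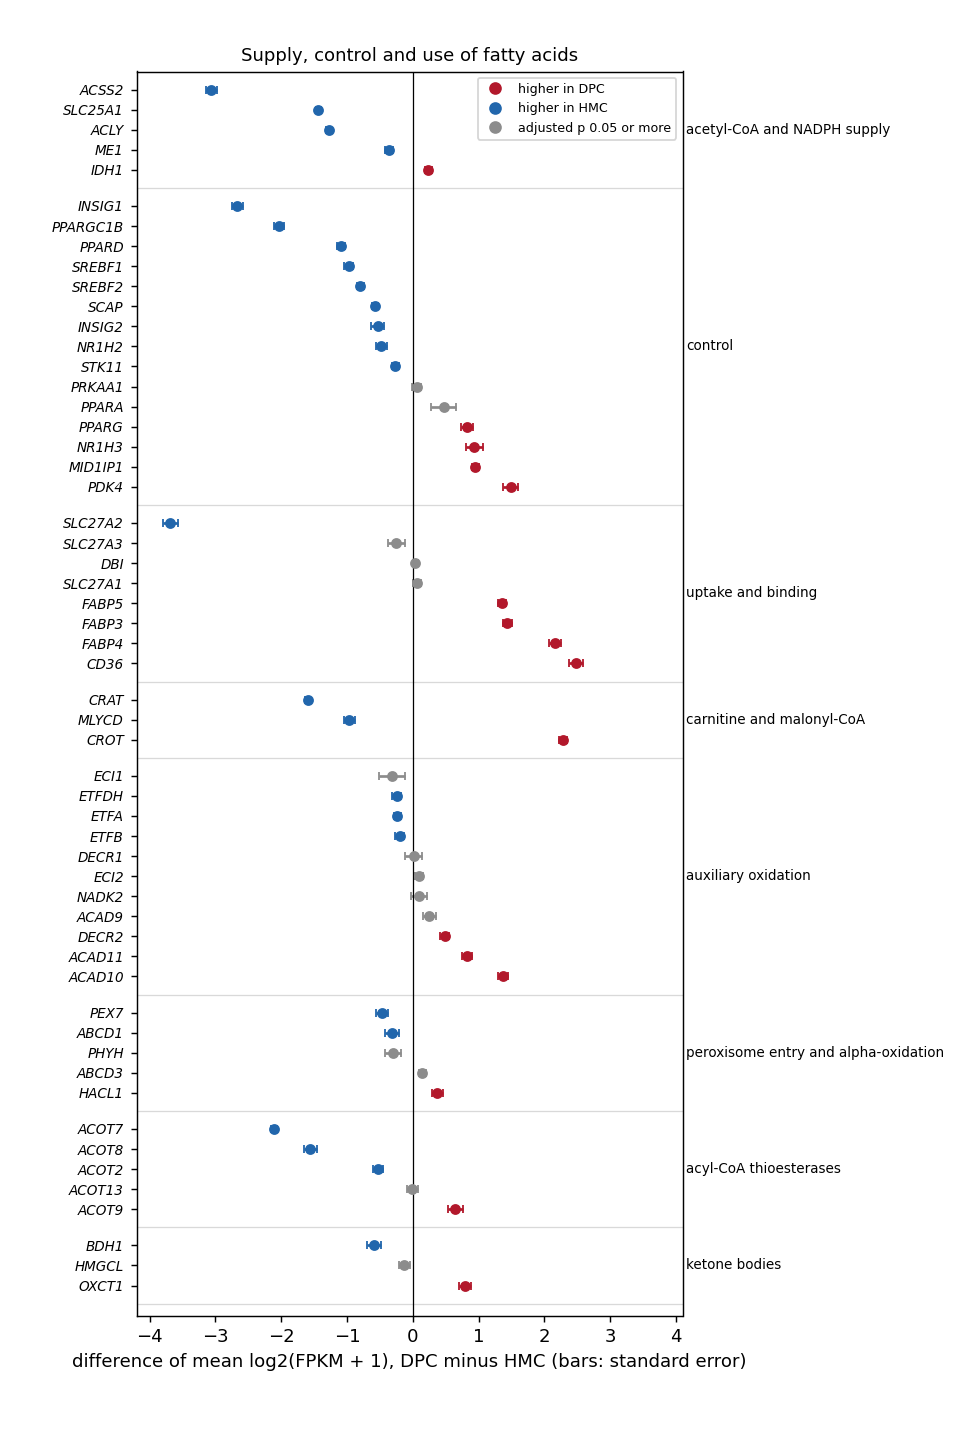
Log2 difference on the log2(FPKM + 1) scale, DPC minus HMC, of 55 tested genes of supply, control and use of fatty acids, grouped by role, with standard errors as bars and colours for calls of the limma test at an adjusted p of 0.05. SLC27A2, ACSS2 and INSIG1 lie farthest toward HMC, at -3.68, -3.07 and -2.67, and CD36 and CROT farthest toward DPC, at 2.48 and 2.28.

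Markers of lipid-storing cells were read beside these values. Of 5 matched adipocyte markers, FABP4 and LEP (OB) lay above 1 FPKM in DPC and none in HMC, and the summed level was 6.62 to 8.35 FPKM in DPC against 0.433 to 0.788 FPKM in HMC. ADIPOQ (ACRP30) and PLIN1 (PERI), which define fat cells, reached at most 0.625 FPKM in any library. Of 4 matched sebaceous markers, FADS2 and ELOVL3 were near 0 in both cell types, DGAT2L6 was higher in HMC at 8.50 ± 0.19 against 4.55 ± 0.13 FPKM, and PLIN2 (ADFP), a lipid droplet coat of many cell types, was higher in DPC at 92.4 ± 2.3 against 19.9 ± 0.84 FPKM. The summed level of these 4 was 95.6 to 99.96 FPKM in DPC against 27.6 to 29.2 FPKM in HMC. The part of such cells in the differences was not tested.

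The table's own pathway names gave a second view, chosen after the table was seen. Its 4 pathways of fatty acid biosynthesis, elongation, unsaturated fatty acids and degradation held 67 rows without those of isoprenoid synthesis. Of 56 tested, 35 were higher in HMC (62.5%, all genes 46.2%), 10 in DPC (17.9%, all genes 29.7%) and 11 did not pass. The median was -0.30, against -0.15 for all genes. Quantile normalization gave 24 toward HMC and 16 toward DPC. Most of these rows are listed enzymes already described, so these counts are not independent of those above.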

How the data were processed

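The authors deposited 1 table of FPKM for 15646 genes, with 1 column per library. Trimmomatic, HISAT2 2.2.1.0 and DESeq 1.20.0 stand in the submitters' processing notes with no role. Counter, genome build and annotation are not stated there. Libraries came from a stranded TruSeq mRNA kit, per the labels' protocols. How reads shared between gene copies were counted is not given. FPKM corrects for gene length and mapped fragments, but not for RNA composition.

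Rows were matched by symbol, or by an older symbol read against the table's annotation. Where several rows shared a symbol, a row set by hand was taken if there was one, and otherwise the row of highest mean. Values of the other rows are not given. The steps of the deposited FPKM gave whole reads for 100% of genes (relative tolerance 1e-09). limma 3.58.1 in R 4.3.3 compared 3 DPC with 3 HMC libraries on log2(FPKM + 1), two-sided, with a prior variance that follows the mean. It was fitted to the 11883 genes whose mean reached 0.5 FPKM, and p was adjusted over all of them (Benjamini-Hochberg). The procedure was tested on simulated data. Other computations used Python 3.11.15, numpy 2.4.6, pandas 2.3.3 and matplotlib 3.10.9.

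The genes and lists were chosen with earlier results of these data known. Values per library are given for FASN, SCD and, in each role, the 2 tested enzymes of highest mean and the 2 of largest absolute difference, and for genes of supply and use by a like rule. Sequences and coordinates are not used here, and a planned search of promoter motifs was not run. 1 listed enzyme that the counts include is not reported here by itself. Alternatives were a pseudocount of 0.1, no filter, a filter at 5 FPKM, median-of-ratios size factors, quantile normalization, no trend, a replicate block, voom on the recovered reads, and each library left out.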

Additional observations from a re-analysis of the deposited data

How the results depend on the processing

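Over 14 alternatives, 6 of which leave out 1 library, 69 enzymes and related genes were followed. Of these, 50 stayed on their side of the threshold with the same sign, and 19 did not in at least 1. The 69 hold the 43 tested enzymes but only part of the 55 tested related genes. Most of that part was chosen for large differences or after the values were seen. The pooled count thus does not describe the listed enzymes alone. FASN and SCD were higher in HMC in all 14. Of the listed enzymes, 5 of 7 calls toward DPC and 20 of 28 toward HMC held in each alternative in which the enzyme was tested. Quantile normalization raised the calls toward DPC from 7 to 11, by PPT1, ACADS, ECHS1 and HADHA. Signs changed under median-of-ratios size factors for MECR (0.0221), CBR4 (0.111), ACADM (0.0996), ACADS (0.132), ECHS1 (0.0627), HADHA (0.0151) and ACOX3 (0.0555). They changed under quantile normalization for MECR (0.0727), CBR4 (0.1499), ACSL4 (0.0385), HACD3 (0.0055), ACADM (0.1096), ACADS (0.206), ECHS1 (0.1967), HADHA (0.159) and ACOX3 (0.0723). With each library left out in turn, the log2 difference ranged from -0.12 to 0.0632 for ACADM, from -0.0659 to 0.0238 for ACADS, from -0.34 to 0.005 for ACADSB and from -0.162 to 0.0766 for CBR4, none of them called. Leaving out single libraries also ended the calls of HADHA (without DPC replicate 1 or 2 or HMC replicate 2 or 3), HACD3 (DPC 1, HMC 1 or 3) and OXSM (DPC 2, HMC 2 or 3). It made calls toward DPC for PPT1 (without DPC 3 or HMC 3) and toward HMC for ECHS1 (without DPC 2). That call of ECHS1 is opposite to its call under quantile normalization. The causes were not tested.

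The values did not show a clear pairing of the libraries by replicate number. Deviations of equally numbered libraries correlated at 0.02, 0.03 and 0.01, and not every library correlated best with its own number. Whether equal numbers share an animal is not stated in the labels, and correlations this small cannot decide it. With the replicate number as a block, 8924 of all genes were called, and 6 listed enzymes toward DPC and 28 toward HMC. Under that replicate block PPARA gained a call (limma adjusted p = 0.013). Genes below 0.5 FPKM, such as FADS2, CPT1B and ACSBG1, rest on 0 to 29 recovered reads per library. With no filter on low values, 2 of the 7 listed enzymes below it were called, FADS2 at 0.26 (limma adjusted p = 0.025, 9 reads in DPC and 2 in HMC) and CPT1C at -0.34 (limma adjusted p = 0.022, 39 and 86 reads).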

Other observations

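Some rows of the table's fatty acid pathways lie outside the list of enzymes and were picked out after their values were seen. ALDH2, the mitochondrial aldehyde dehydrogenase, stood at 68.7 ± 2.8 FPKM in DPC against 40.5 ± 6.0 FPKM in HMC (SD, n = 3 each), a log2 difference of 0.76 (limma adjusted p = 1.4e-04). GCDH, which acts on glutaryl-CoA from lysine, stood at 7.04 ± 0.38 and 11.9 ± 0.61 FPKM, a log2 difference of -0.68 (limma adjusted p = 3.5e-05). The aldehyde dehydrogenase ALDH7A1 stood at 55.8 ± 1.6 and 55.5 ± 0.54 FPKM and missed the threshold.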
